A study of Caenorhabditis elegans with 48 samples.

Results

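gmpr-1 (WBGene00017984) is the Caenorhabditis elegans gene for a GMP reductase. It was chosen because an earlier treatment of these data found fewer ribosome footprints per mRNA in Starved than in Fed libraries, so its values in that contrast are given as a description, with no test. It is 1 gene of the 19454 in the mRNA-seq table and of the 10741 in the Ribo-seq table, and it passed the filter on low counts in both experiments. Its reference entry (assembly WBcel235) lists 2 RefSeq proteins and no overlapping gene, and the counts do not separate isoforms.

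GMP reductase turns guanosine monophosphate (GMP) back into inosine monophosphate (IMP), using NADPH and releasing ammonia. IMP is the branch point of purine synthesis: IMP dehydrogenase and GMP synthetase lead from it to GMP, and adenylosuccinate synthetase and lyase lead from it to AMP. The reductase therefore runs against the guanine branch and allows guanine nucleotides to become adenine nucleotides. These roles are known mainly from bacterial and mammalian enzymes.

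Polyadenylated mRNA was sequenced beside ribosome footprints, the stretches of mRNA that a ribosome shields from nuclease, in worms labelled as young adult. In the feeding experiment, Fed and Starved worms were compared, with 6 libraries per group and assay. In the knockdown experiment, Empty_vector worms were compared with worms under RNA interference against E02H1.1 or C27F2.4, with 4 libraries per group and assay; these genes are the C. elegans homologues of the 18S ribosomal RNA methyltransferases DIMT1 and BUD23. The series title places the work in the study of hormesis between generations and of inherited methylation of 18S rRNA.

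The sources used here do not name the strain, the length of starvation or the generation sampled. Nor do the labels say whether libraries of a group came from separate cultures; p-values therefore cover only the spread among the libraries, and that spread may be technical. Library totals were 19.24 to 22.84 M counts (M for mega) for mRNA-seq and 3.91 to 11.75 M for Ribo-seq. Levels are in CPM, the count scaled to library size. The 6 vitellogenin genes, whose yolk proteins mark egg-laying adults, summed to between 1.44 and 4.16 CPM per mRNA library. The 31 major sperm protein genes in the table summed to between 0.865 and 2.28 CPM, and 4 of them were at 0 in all libraries, so both gene sets were near 0 throughout. The RNAi targets followed their labels: E02H1.1 mRNA was 16.9 to 20.8 CPM under its own RNAi and 62.5 to 75.8 CPM in Empty_vector, and C27F2.4 mRNA was 29.2 to 34.1 CPM against 55.7 to 66.4 CPM.

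gmpr-1 was a well-covered transcript with few footprints for its mRNA. Each library held 8314 to 14079 mRNA counts and 577 to 2788 footprint counts of the gene. The scaling was made over the 24 libraries of an assay. Footprints per mRNA is the Ribo-seq CPM divided by the mRNA-seq CPM of the library of the same name. The length of the gene cancels in it only if both assays were counted over the same part of the gene. The sources used here do not state that part, so ranks of the ratio against other genes are a description. The 10725 genes with levels in both assays were ranked. By this ratio gmpr-1 stood on average at percentile 7.43 of them in Fed libraries, 3.94 in Starved, 16.8 in Empty_vector, 10.7 under E02H1.1 RNAi and 14.6 under C27F2.4 RNAi.

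In Starved worms gmpr-1 mRNA lay within the range of Fed worms or close to it, while its footprints were at 67.5% of the Fed level. The mRNA was 543 CPM at the lowest, 582 at the median and 604 at the highest in Fed libraries, and 537, 564.5 and 601 CPM in Starved libraries, so the groups overlapped. Footprints were 186, 197 and 213 CPM in Fed libraries and 123, 134 and 148 CPM in Starved libraries. All 6 Starved libraries lay below all 6 Fed libraries. Footprints per mRNA were 0.330, 0.334 and 0.370 in Fed libraries and 0.216, 0.240 and 0.257 in Starved libraries, again without overlap.

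The fitted log2 change from Fed to Starved was -0.03 ± 0.04 (SE, 6 libraries a group) for gmpr-1 mRNA and -0.57 ± 0.05 for its footprints. The change in footprints relative to mRNA, called translational efficiency (TE) in what follows, was -0.55 ± 0.06, which leaves 68.5% of the Fed ratio. From the lowest, the footprint change ranked 72 of 10589 genes and the TE change 122 of 10572. Over all genes tested, 21.9% of mRNA changes, 28.6% of footprint changes and 6.31% of TE changes passed an adjusted p of 0.05. Without 1 library, the number of genes called in TE ran from 426 (without Fed library 5) to 730, beside 667 with all libraries. Because the gene was picked on this contrast, these ranks support nothing further. In such bulk samples, fewer cells of a type and less RNA per cell cannot be told apart.

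**Figure D1:**
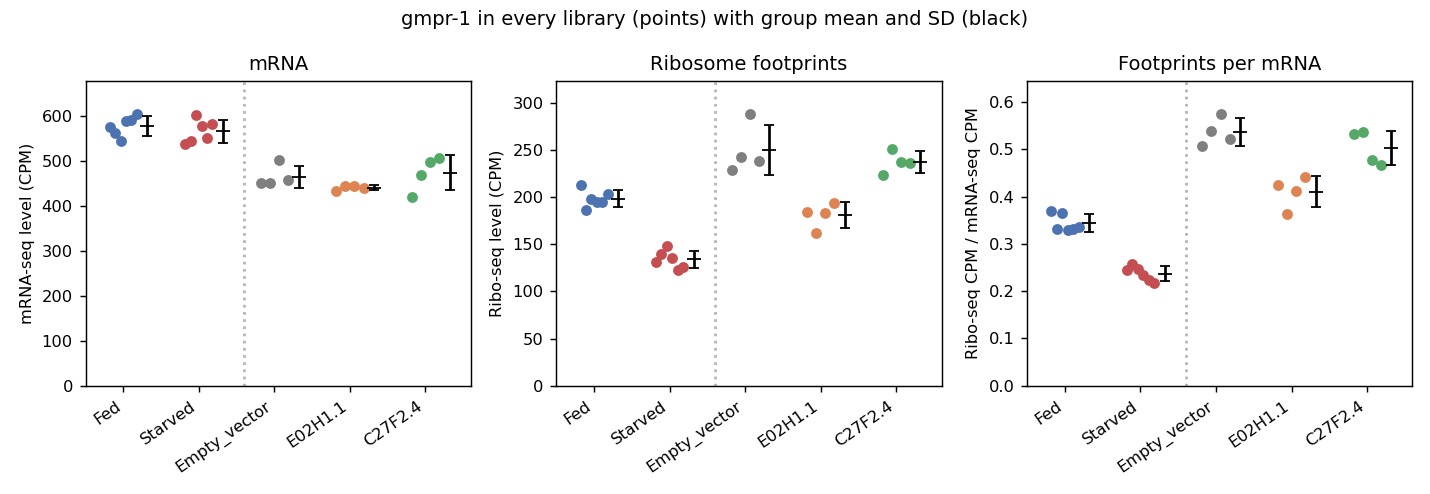
gmpr-1 in all 48 libraries: mRNA-seq CPM (left), Ribo-seq CPM (middle) and their ratio (right), by group, with each point a library and the group mean and SD in black; the dotted line parts the 2 experiments. mRNA overlaps between Fed and Starved, whereas footprints are 123 to 148 CPM in Starved and 186 to 213 CPM in Fed libraries; E02H1.1 footprints, at 161.5 to 194 CPM, lie below all Empty_vector libraries.

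The knockdowns give measures of gmpr-1 that its choice did not use. Under E02H1.1 RNAi, gmpr-1 footprints fell to 72.7% of Empty_vector and footprints per mRNA fell to 76.1%. Footprints were 229, 243, 288 and 238.5 CPM in Empty_vector libraries A to D, and 184, 161.5, 183 and 194 CPM in E02H1.1 libraries A to D. Footprints per mRNA were 0.508, 0.539, 0.575 and 0.523 in Empty_vector and 0.425, 0.364, 0.413 and 0.442 under E02H1.1 RNAi. In both measures, all 4 knockdown libraries lay below all 4 control libraries.

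The footprint change was -0.46 ± 0.07 on the log2 scale (SE, 4 libraries a group; adjusted p = 5.63e-05, edgeR quasi-likelihood test). It ranked 159 from the lowest of 10736 genes, of which 20.0% passed the test. The TE change was -0.39 ± 0.09 (adjusted p = 0.00395, edgeR), with a 95% interval of -0.57 to -0.22, and it ranked 520 from the lowest of 10714 genes, of which 10.6% passed. These 1138 TE calls over all genes were 655 without E02H1.1 library B. Both calls were kept in each of the 8 fits that left out 1 library, with footprint changes of -0.51 to -0.38 and TE changes of -0.46 to -0.36. An exact permutation test of each measure (two-sided, 70 splits) gave p = 0.0286, the smallest that 4 against 4 libraries can give, and 0.0515 after adjustment over the 9 knockdown tests.

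gmpr-1 mRNA under E02H1.1 RNAi did not pass the edgeR test. It was 450.5, 449.8, 501 and 456 CPM in Empty_vector libraries A to D and 433, 444, 443 and 439 CPM in E02H1.1 libraries. All 4 knockdown libraries were below the controls by a small margin, and the log2 change was -0.08 ± 0.05 (adjusted p = 0.21, edgeR), with an interval of -0.18 to 0.02. The exact permutation test gave p = 0.0286, or 0.0515 adjusted, as for the other measures. In this comparison 39.5% of 13637 genes passed. The Empty_vector library C was the highest of all 12 knockdown-experiment libraries in footprints and in the ratio, and without it the mRNA change was -0.04, the footprint change -0.38 and the TE change -0.36.

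C27F2.4 RNAi gave no change of gmpr-1 that passed the test. Its mRNA was 419, 469, 497 and 506 CPM in libraries A to D, its footprints 223.5, 251, 237 and 236 CPM, and its footprints per mRNA 0.533, 0.536, 0.476 and 0.467. Each of these ranges overlapped that of Empty_vector. The log2 changes were 0.03 ± 0.05 for mRNA (adjusted p = 0.754, edgeR), -0.07 ± 0.06 for footprints (adjusted p = 0.566) and -0.11 ± 0.09 for TE (adjusted p = 0.627). The intervals were -0.07 to 0.13, -0.20 to 0.05 and -0.28 to 0.06. In this comparison 13.7% of genes passed in mRNA, 7.08% in footprints and 0.821% in TE. The calls over all genes went from 1864 to 1189 in mRNA without C27F2.4 library B, from 760 to 482 in footprints without Empty_vector library C, and from 88 to between 20 (without Empty_vector library A) and 241 (without C27F2.4 library A) in TE. The mRNA change turned to -0.01 without C27F2.4 library D, and the footprint change to 0.001 without Empty_vector library C.

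Both knockdowns were compared with the same Empty_vector libraries, so the difference between them was tested directly. gmpr-1 footprints were lower under E02H1.1 than under C27F2.4 RNAi, at 181 ± 13.7 against 237 ± 11 CPM (mean ± SD, 4 libraries each), without overlap. The log2 difference was -0.39 ± 0.07 (adjusted p = 0.00245, edgeR), in a comparison where 1.25% of genes passed, and it passed in 8 of 8 fits without 1 library. Footprints per mRNA did not overlap either, at 0.411 ± 0.0336 and 0.503 ± 0.0365. Their difference of -0.28 ± 0.09, with an interval of -0.46 to -0.11, had an unadjusted p of 0.00274 and an adjusted p of 0.299 (edgeR), where 0.0467% of genes passed. With same-named mRNA and footprint libraries treated as 1 culture, the difference was -0.29 with an adjusted p of 0.00253. Without 1 library, the calls over all genes ran from 69 (without E02H1.1 library B) to 413 (without C27F2.4 library A) in footprints, beside 134, and from 1 to 6 in TE, beside 5.

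The mRNA of gmpr-1 overlapped between the 2 knockdowns. Its log2 difference was -0.11 ± 0.05 (adjusted p = 0.197, edgeR; 3.26% of genes passed). Without C27F2.4 library A, which had the lowest gmpr-1 mRNA of the experiment, the difference was -0.17 with an adjusted p of 0.011. The 445 mRNA calls over all genes were 1713 without that library and 84 without E02H1.1 library B.

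**Figure D2:**
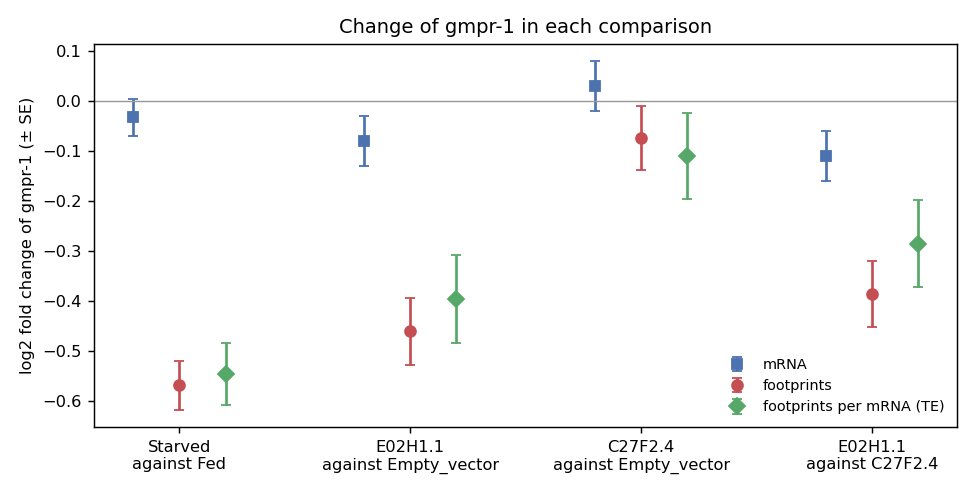
Fitted log2 fold change of gmpr-1 in each comparison, with bars of 1 SE, for mRNA (squares), footprints (circles) and footprints per mRNA (TE, diamonds). The mRNA changes run from -0.11 to 0.03, and the footprint changes are -0.57 in Starved against Fed, where no test was made, -0.46 in E02H1.1 against Empty_vector and -0.07 in C27F2.4 against Empty_vector.

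**Figure D3:**
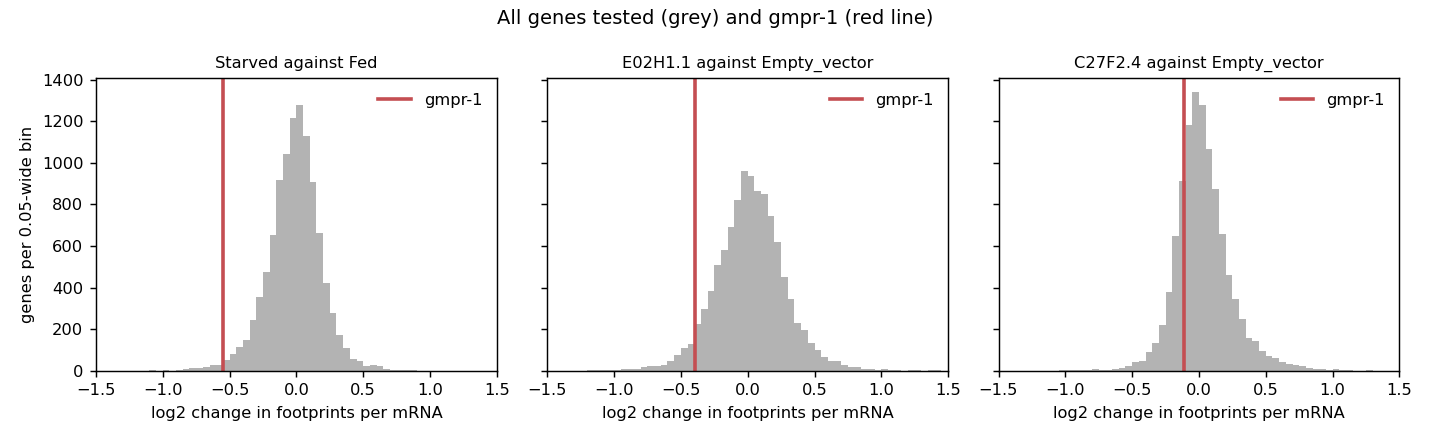
Log2 change in footprints per mRNA of all genes tested (grey bars, genes per bin) with gmpr-1 as a red line, in 3 comparisons; each horizontal axis is limited to 1.5 either side of 0. gmpr-1 lies in the left tail at -0.55 in Starved against Fed and at -0.39 in E02H1.1 against Empty_vector, and nearer the centre at -0.11 in C27F2.4 against Empty_vector.

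Across the 5 groups, mean gmpr-1 mRNA was lowest under E02H1.1 RNAi (439.8 ± 5.18 CPM), then came Empty_vector (464 ± 24.7), C27F2.4 (473 ± 39), Starved (565.5 ± 25.3) and Fed (577 ± 22.1). As neighbours in that order, E02H1.1 did not overlap with Empty_vector, nor C27F2.4 with Starved, while the other neighbours did. Footprints followed another order: Starved (134 ± 9.23 CPM), E02H1.1 (181 ± 13.7), Fed (198 ± 9.04), C27F2.4 (237 ± 11) and Empty_vector (249.6 ± 26.5). Among those neighbours, E02H1.1 overlapped with Fed and C27F2.4 with Empty_vector.

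For footprints per mRNA the order was Starved (0.237 ± 0.0153), Fed (0.344 ± 0.0184), E02H1.1 (0.411 ± 0.0336), C27F2.4 (0.503 ± 0.0365) and Empty_vector (0.536 ± 0.0292). Fed overlapped with E02H1.1 and C27F2.4 with Empty_vector. The feeding and knockdown experiments were not designed as controls of each other, so the step between Fed and Empty_vector was not tested.

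Ribo-seq depth differed between groups, from a mean of 4.91 M counts in Starved and 5.41 M under E02H1.1 RNAi to 5.96 M in Fed, 7.52 M in Empty_vector and 9.36 M under C27F2.4 RNAi. The deepest Starved library, with 6.15 M counts, held 136 CPM of gmpr-1 footprints, against 194 CPM in the shallowest Fed library, with 4.17 M. The deepest E02H1.1 library, with 6.39 M counts, held 194 CPM, against 238.5 CPM in the shallowest Empty_vector library, with 5.78 M. Each of these is 1 library against 1. Depth ran from 4.23 to 6.39 M in E02H1.1 and from 5.78 to 8.66 M in Empty_vector libraries. With every library thinned to the depth of the shallowest one in its experiment, the footprint change was -0.57 in Starved against Fed and -0.48 in E02H1.1 against Empty_vector (adjusted p = 3.04e-05, edgeR). Whether depth had a part in the group differences was not tested otherwise.

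**Figure D4:**
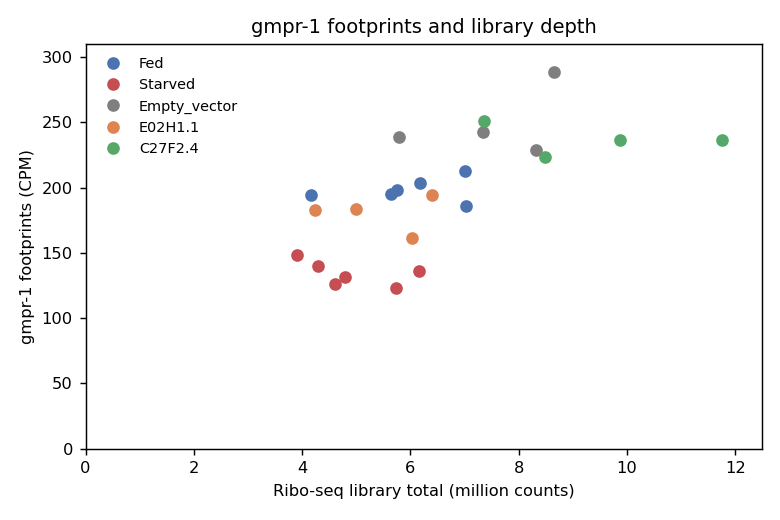
gmpr-1 footprints (CPM) against the total count of each Ribo-seq library, 1 point a library, coloured by group. Starved and Fed libraries span overlapping depths at 123 to 148 and 186 to 213 CPM, and the deepest E02H1.1 library (6.39 M) is below the shallowest Empty_vector library (5.78 M).

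The other enzymes around gmpr-1 were taken from a list of purine genes, of which 31 were in both tables. IMP dehydrogenase, the enzyme opposed to GMP reductase, was not analysed here. Of the 31, in Starved against Fed, 3 rose and 3 fell in mRNA (19.4%, median log2 change 0.03), 2 rose and 6 fell in footprints (25.8%, median 0.03), and 1 rose and 3 fell in TE (12.9%, median -0.06). Scaled by library totals alone, the split was 0 and 4 in mRNA and 2 and 2 in TE, and none of the called genes changed sign. The split over all genes moved as well. It went from 1564 higher and 1351 lower to 1216 and 2012 in mRNA, and from 217 and 450 to 535 and 283 in TE. The shares over all genes are those given for that comparison, and the medians over all genes were 0.00, 0.01 and -0.01. In mRNA, footprints and TE, 11.8%, 13.9% and 2.05% of all genes rose and 10.2%, 14.7% and 4.26% fell. No listed gene had a TE change below that of gmpr-1, which was lowest of the 32 in footprints and in TE and stood at rank 11 from the lowest in mRNA. Since gmpr-1 was picked on this contrast, its place in the list here supports nothing further. The mRNA count of 6 was 3 without Fed library 4 or without Starved library 5, and the TE count of 4 was 2 without Starved library 2.

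On the guanine and adenine branches, none of the listed enzymes passed in Starved against Fed. gmps-1, the GMP synthetase, had log2 changes of 0.01 ± 0.05 in mRNA, -0.17 ± 0.07 in footprints (adjusted p = 0.0692, edgeR) and -0.19 ± 0.08 in TE (adjusted p = 0.182). adss-1, the adenylosuccinate synthetase, had a TE change of -0.20 ± 0.07 (adjusted p = 0.0721). For adsl-1, the adenylosuccinate lyase, and ampd-1, the AMP deaminase that returns AMP to IMP, the footprint changes were 0.03 ± 0.06 and 0.01 ± 0.05. The footprints of gmps-1 averaged 44.2 ± 4.36 CPM in Fed and 39.1 ± 2.31 CPM in Starved libraries, and their ranges overlapped.

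Among the kinases and reductase subunits, rnr-1, the large subunit of ribonucleotide reductase, fell in mRNA (-0.17, adjusted p = 0.0018), in footprints (-0.47, adjusted p = 8.31e-10) and in TE (-0.31, adjusted p = 0.00151). Its footprints were 1030 ± 44.9 CPM in Fed and 739 ± 56.5 CPM in Starved libraries (n = 6 each). rnr-2, the small subunit, fell in mRNA by 0.18 and in footprints by 0.28 on the log2 scale. ndk-1, a nucleoside diphosphate kinase, rose in mRNA (0.14) and fell in footprints (-0.14) and in TE (-0.29, adjusted p = 0.00784). guk-1, the guanylate kinase that phosphorylates GMP, rose in footprints (0.13, adjusted p = 0.043) and in TE (0.22, adjusted p = 0.02).

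Of the remaining groups, R151.2, a phosphoribosyl pyrophosphate synthetase, fell in mRNA (-0.20) and in footprints (-0.19). xdh-1, the xanthine dehydrogenase of purine breakdown, fell in footprints (-0.23) and in TE (-0.30, adjusted p = 0.028). On the same breakdown list, Y71H10B.1 fell in footprints (-0.18), and F25B5.3 rose in mRNA (0.12) and in footprints (0.37). adah-1, on the salvage list, rose in mRNA (0.12). No gene of cofactor synthesis from GTP passed in Starved against Fed.

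Under E02H1.1 RNAi, of 31 purine genes, 4 rose and 11 fell in mRNA (48.4%, median -0.09), beside 39.5% of all genes. In footprints, 1 rose and 6 fell (22.6%, median -0.07), beside 20.0% of all genes. Of all genes, 19.9% rose and 19.6% fell in mRNA, and 10.7% rose and 9.23% fell in footprints. With every library thinned to the same depth, 5 of the 31 passed in mRNA, beside 3298 of 11225 genes over all. In footprints 7 passed, beside 1671 of 10469. In TE none passed by edgeR, 2 by the DESeq2 Wald test and 5 by limma voom, beside 1138, 1320 and 1594 of 10714 genes over all. An unadjusted p under 0.05 in TE (edgeR) was seen for 10 of the 31. In none of the comparisons is the share of all genes at an unadjusted p under 0.05 given, so such counts are a description. The TE count was 1 without Empty_vector library C, 2 without E02H1.1 library A and 1 without E02H1.1 library D. Over all genes the TE counts were then 1009, 1089 and 746. From the lowest of the 32, gmpr-1 was at rank 4 in footprints and in TE, and at rank 17 in mRNA.

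ampd-1 mRNA rose under E02H1.1 RNAi from 72.7 ± 5.96 to 96.3 ± 4.55 CPM (log2 change 0.40 ± 0.06, adjusted p = 8.86e-06, edgeR, n = 4 each). Its TE change of -0.26 ± 0.09 had an adjusted p of 0.0677. gmps-1, adss-1 and adsl-1 passed in none of the measures, with footprint changes of -0.19 (adjusted p = 0.0888), -0.19 (adjusted p = 0.0663) and -0.16 (adjusted p = 0.0879). All 3 of these footprint changes were below 0 without passing the test.

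The de novo enzymes pfas-1 and paic-1 fell in both assays. pfas-1, for phosphoribosylformylglycinamidine synthase, fell by 0.56 in mRNA and by 1.31 in footprints on the log2 scale (adjusted p = 0.00072, edgeR), from 6.2 ± 1.46 to 2.43 ± 0.545 CPM of footprints. paic-1, for an enzyme of later steps, fell by 0.54 in mRNA and by 0.78 in footprints (adjusted p = 0.000159), from 21.2 ± 1.7 to 12.3 ± 2.12 CPM. R151.2 fell in footprints (-0.22), and atic-1, which completes IMP, rose in mRNA (0.50, adjusted p = 0.0203).

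Outside that group, the mRNA changes that passed were negative for hprt-1 (-0.28) and pnp-1 (-0.21) of purine salvage, for guk-1 (-0.16), the adenylate kinase let-754 (-0.25), ndk-1 (-0.28), rnr-1 (-0.23) and rnr-2 (-0.36), and for moc-1 (-0.27) and moc-3 (-0.34) of molybdenum cofactor synthesis. They were positive for F13E6.2 (0.33), on the kinase list, and Y71H10B.1 (0.30). In footprints, adk-1, the adenosine kinase, fell (-0.21), as did rnr-1 (-0.24) and rnr-2 (-0.26), and Y71H10B.1 rose (0.20).

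Under C27F2.4 RNAi, 2 purine genes rose and 1 fell in mRNA, and 3 fell in footprints (9.68% in each assay). Over all genes, 13.7% and 7.08% passed in either direction. Of all genes, 8.11% rose and 5.56% fell in mRNA, and 4.96% rose and 2.11% fell in footprints. The mRNA of ampd-1 (0.28) and Y71H10B.1 (0.16) rose and that of ndk-1 (-0.23) fell. The footprints of pfas-1 (-0.88), paic-1 (-0.47) and F38B6.4 (-0.56), a homologue of the GART enzyme of de novo synthesis, fell. In TE none passed by edgeR, DESeq2 or limma voom, beside 88, 290 and 415 of 10714 genes over all, with 6 at an unadjusted p under 0.05 (edgeR). The mRNA count was 1 without C27F2.4 library A or B, and the footprint count was 1 without Empty_vector library A.

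Between the 2 knockdowns, rnr-1 (-0.22) and rnr-2 (-0.30) mRNA were lower under E02H1.1 RNAi (adjusted p = 0.0357 and 0.00643, edgeR). They are 6.45% of the list, beside 3.26% of all genes in either direction and 1.64% that were lower. No listed gene other than gmpr-1 passed in footprints by edgeR or DESeq2, with 6 at an unadjusted p under 0.05 (edgeR) and 3 passing by limma voom. Over all 10736 genes, 134, 193 and 569 passed by edgeR, DESeq2 and limma voom. In TE none passed by any of the 3 tools, beside 5, 49 and 17 of 10714 genes over all, with 1 at an unadjusted p under 0.05 (edgeR). The mRNA count of 2 was 4 without C27F2.4 library A and 1 without any one of the C27F2.4 libraries B to D or E02H1.1 libraries A, B and D. The footprint count was 3 without C27F2.4 library A.

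**Figure D5:**
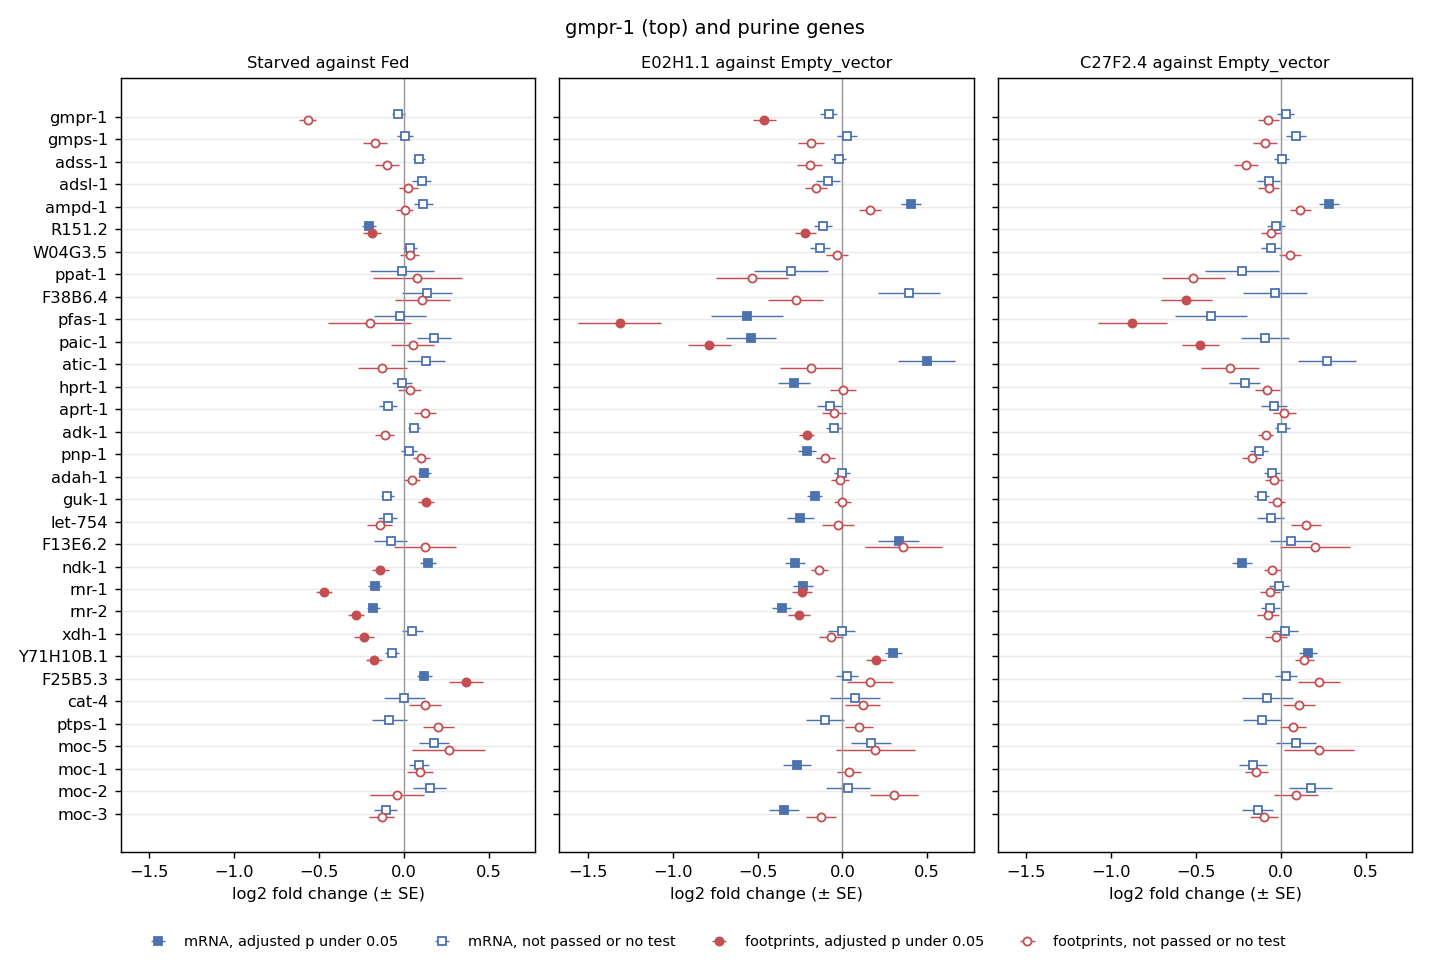
Log2 fold change (± SE) of gmpr-1 (top row) and the 31 purine genes in mRNA (squares) and footprints (circles), in 3 comparisons; filled symbols passed an adjusted p of 0.05, and open ones did not pass or, for gmpr-1 in Starved against Fed, were not tested. In Starved against Fed, the contrast gmpr-1 was picked on, it has the lowest footprint change of the 32 (-0.57), next to rnr-1 (-0.47). Under E02H1.1 RNAi pfas-1 (-1.31) and paic-1 (-0.78) lie lower than gmpr-1 (-0.46).

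The genes whose pattern was most like that of gmpr-1 were found by Pearson's r over the 24 libraries, each centred on the mean of its experiment. These correlations are a description: the points share libraries, depth and group differences, and the genes were picked for their likeness. In mRNA, over 13165 genes, the 5 nearest were grif-1 (r = 0.899), ify-1 (0.89), which acts as a securin, spn-4 (0.886), a maternal RNA-binding protein, Y37E11AL.3 (0.876) and xpo-2 (0.872), an export receptor. In footprints, over 10583 genes, they were npp-2 (0.938), of the nuclear pore, rnr-1 (0.927), xpo-2 (0.925), sun-1 (0.925), of the inner nuclear membrane, and rpn-2 (0.924), of the proteasome.

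In footprints per mRNA, over 10563 genes, the nearest were iars-1 (r = 0.909) and lars-1 (0.905), the isoleucyl- and leucyl-tRNA synthetases, gln-6 (0.893), a glutamine synthetase, C28H8.3 (0.893) and ears-1 (0.881), the glutamyl-tRNA synthetase. Their TE changes in Starved against Fed were -0.39, -0.50, -0.50, -0.54 and -0.37 in that order, beside -0.55 for gmpr-1. In E02H1.1 against Empty_vector they were -0.27, -0.25, -0.63, -0.33 and -0.26, beside -0.39. With the group means also taken off, r was 0.472, 0.233, 0.632, 0.331 and 0.125, lower for each of the 5. Treated likewise, r was 0.863 to 0.92 for the 5 nearest in mRNA and 0.602 to 0.751 for those in footprints. By Spearman's rho, 3 of the 5 nearest genes were shared in mRNA, 2 in footprints and 4 in footprints per mRNA.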

How the data were processed

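mRNA-seq and Ribo-seq were measured in 48 libraries of C. elegans. The counts per gene were deposited by the authors as whole numbers with no scaling, 1 column per library. Per the submitters' processing notes, cutadapt was used, without a stated version. The sources used here name no aligner, counter or genome build, and no strand setting for the counting. A deposited table of log2 TE was also given; each of its 256800 values matched, within 1e-09, the log2 ratio of Ribo-seq to mRNA-seq counts after adding 1 to both, and it served as an alternative only. Groups came from the labels. Knockdown columns have letters in place of the labels' numbers and were mapped to groups only.

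Each experiment and assay was fitted over its whole table with edgeR 4.0.16 in R 4.3.3 (filterByExpr, TMM scaling, robust quasi-likelihood test, two-sided, Benjamini-Hochberg adjustment over all genes that passed the filter, threshold 0.05). All 3 knockdown groups shared 1 fit. TE changes are the interaction of assay and group in 1 model over both assays. SE is the size of the log2 change divided by the square root of F, and intervals are 1.96 SE either way. Levels are TMM-scaled CPM over the 24 libraries of an assay. Alternatives included DESeq2 1.42.0 and limma 3.58.1. The fits were also run on simulated counts with 200 genes changed, each assay drawn separately. The outcome is not reported here.

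The gene and the gene lists were chosen with earlier results of these data known. Purine genes were matched by symbol, sequence name or older symbol; 31 of the 34 names listed besides gmpr-1 gave a separate gene in both tables. Named in the text are gmpr-1, the genes of the guanine and adenine branches, the list members that passed (the rule also allows up to 2 that did not), the 5 genes most like gmpr-1 in each measure, and the RNAi targets. The part of that rule on the most identical proteins was not applied. The deviations of same-numbered (or same-lettered) libraries of different groups had a correlation over 0.1 in 0 of 6 feeding pairs and 0 of 12 knockdown pairs in mRNA-seq, and in 0 of 6 and 5 of 12 in Ribo-seq. These 5 pairs were all of letter A or C, at 0.158 to 0.317. Since not every pair was over 0.1, the main fits did not treat them as paired. A block for the number or letter (replicate block) was an alternative. With it, footprint calls over all genes in E02H1.1 against C27F2.4 were 430, beside 134 in the main fit. Between mRNA and footprints of the same column, the correlation was over 0.1 in 10 of 24 columns and 0.494 at the highest. The main TE fit still took the assays of a column as independent, and some TE calls depend on this. With the culture block, gmpr-1 TE passed in E02H1.1 against C27F2.4, which it did not in the main fit. Purine TE calls in E02H1.1 against Empty_vector were 0 in the main fit and 7 with that block, beside 1138 and 2199 over all genes.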

Additional observations from a re-analysis of the deposited data

Results flagged for a closer look

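gmpr-1 mRNA in Empty_vector library C was 501 CPM, far from the other 3 libraries of its group, which held 449.8 to 456 CPM. Of 15 checks (5 groups by mRNA, footprints and footprints per mRNA) this was the 1 that stood apart, and chance alone marks about 1 group in 20. Without this library the E02H1.1 changes of gmpr-1 were -0.04 in mRNA, -0.38 in footprints and -0.36 in TE, and the latter 2 still passed. gmpr-1 footprints also differed between the knockdowns: the change under E02H1.1 RNAi was lower than that under C27F2.4 RNAi by a log2 difference of -0.39 (adjusted p = 0.00245, edgeR).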

How the results depend on the processing

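Of 233 gmpr-1 repeats, 225 kept the direction and, where tested, the side of the threshold. The footprint and TE calls of E02H1.1 against Empty_vector held in all of theirs (in the exact permutation test only unadjusted; adjusted p = 0.0515), with footprint changes of -0.48 to -0.42 and TE changes of -0.41 to -0.37 outside the leave-one-out fits. The Starved against Fed mRNA change was 0.0014 without Starved 1 and Starved 5, a pair chosen after seeing the data, and the footprint change was then -0.53. E02H1.1 against Empty_vector mRNA passed only in the exact permutation test (-0.0772, unadjusted). For E02H1.1 against C27F2.4, mRNA passed with limma voom (-0.1268) and TE with the culture block (-0.2870) and in the exact permutation test (-0.2926, unadjusted). Leaving out 1 library, gmpr-1 changes ran from -0.0071 to 0.0867 in mRNA and from -0.1056 to 0.001 in footprints for C27F2.4 against Empty_vector, and from -0.1664 to -0.0771 in mRNA for E02H1.1 against C27F2.4. The cause was not tested.

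The numbers of purine genes called depended more on the setting. In Starved against Fed, mRNA calls were 3 with thinned counts (main 6) and TE calls 2 without Starved 1 and Starved 5 (main 4); without 1 library they ran from 3 to 8 and from 2 to 4. In E02H1.1 against Empty_vector, mRNA calls were 5 with thinned counts (main 15). TE calls there (main 0) were 1 with DESeq2 size factors, library totals, at least 10 counts in every library or thinned counts, 2 with the DESeq2 Wald test, 3 with the replicate block or only the 2 groups, 5 with limma voom and 7 with the culture block, and 0 to 2 without 1 library. Over all 10714 genes, TE calls there were 1138 in the main fit and 1320 with the Wald test. They were 1611 with the replicate block, 1594 with limma voom and 2199 with the culture block. In C27F2.4 against Empty_vector, footprint calls (main 3) were 5 with the replicate block and 1 with thinned counts, TE calls (main 0) were 2 with the culture block, and mRNA and footprint calls were 1 to 3 without 1 library. In E02H1.1 against C27F2.4, mRNA calls (main 2) were 4 with the replicate block and 1 to 4 without 1 library, and footprint calls (main 0) were 3 with limma voom, 2 with the replicate block and 0 to 3 without 1 library.

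Counts over all genes moved by over 1.5 times in these fits of all libraries. For Starved against Fed, thinned counts gave 1752 mRNA calls (main 2915) and the culture block 1157 TE calls (main 667). For E02H1.1 against Empty_vector, thinned counts gave 3298 mRNA (main 5393) and 752 TE calls (main 1138), and the culture block 2199 TE calls. For C27F2.4 against Empty_vector, thinned counts gave 996 mRNA (main 1864), 486 footprint (main 760) and 49 TE calls (main 88), and the replicate block 1343 footprint and 287 TE calls. TE calls there were 133 with DESeq2 size factors, 290 with the Wald test, 415 with limma voom and 684 with the culture block. For E02H1.1 against C27F2.4, mRNA calls (main 445) were 908 with the Wald test, 1523 with limma voom, 1446 with the replicate block, 272 with thinned counts and 699 with only the 2 groups; footprint calls (main 134) were 569 with limma voom and 430 with the replicate block; TE calls (main 5) were 49, 17, 50 and 289 with the Wald test, limma voom, the replicate block and the culture block. Moves without 1 library are in the results. The replicate block changed no call of gmpr-1 (E02H1.1 against Empty_vector TE -0.3923). Counting alone gives gmpr-1 footprints an error of 1.89% to 4.16%.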

Other observations

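A comparison list of 13 pyrimidine synthesis and salvage genes was counted in the same fits. In Starved against Fed, none rose, and 3 fell in mRNA, 4 in footprints and 1 in TE (23.1%, 30.8% and 7.69%). Over all genes, 21.9%, 28.6% and 6.31% passed in either direction, and 10.2%, 14.7% and 4.26% passed as lower. pyr-1, the enzyme of the first steps of pyrimidine synthesis, fell by 0.22 in mRNA and by 0.41 in footprints on the log2 scale, and ctps-1, the CTP synthase, fell by 0.36 in footprints and by 0.40 in TE (adjusted p = 0.00116, edgeR). dut-1, the dUTPase, fell by 0.31 in footprints. Under E02H1.1 RNAi, 2 of the 13 fell in mRNA, dhod-1 (-0.20) and tyms-1 (-0.25), while in footprints dhod-1 fell (-0.38) and cdd-1 rose (0.33). In each assay 2 of 13 is 15.4%, beside 39.5% and 20.0% of all genes in either direction. In mRNA, 19.6% of all genes fell.

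The genes on either side of gmpr-1 in the reference (WBcel235) were looked up for their position, outside the naming rule. fipp-1 fell in Starved against Fed in mRNA (-0.17, adjusted p = 0.00133, edgeR) and in footprints (-0.19, adjusted p = 0.00422), with a TE change of -0.04 (adjusted p = 0.8). Under E02H1.1 RNAi its mRNA fell (-0.15, adjusted p = 0.0252), with a TE change of 0.17 (adjusted p = 0.154). F32D1.11 passed in none of the 4 comparisons in mRNA, footprints or TE.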
